A study of Mus musculus with 4 samples.

Results

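The genes described here encode the proteins of the mitochondrial ribosome. They were taken from the arrays by name, as every feature whose symbol starts with Mrpl (large subunit) or Mrps (small subunit) followed by a number, which gave 75 genes of 31829 named features, or 95 probes of 39429 and 122 spots of 43020. The rule used no measured value. Of the 75 genes, 48 belong to the large subunit, with Mrps18a and Mrps30 counted there because their proteins sit in it. The other 27 were counted to the small subunit, Mrps36 by its name only.

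Mitochondria keep a small genome of their own, and the few proteins it encodes are core subunits of the respiratory chain and the ATP synthase. They are made inside the organelle by a dedicated ribosome, whose RNAs come from mitochondrial DNA while all of its proteins are encoded in the nucleus, made in the cytosol and imported. Many of these proteins have counterparts in bacterial ribosomes, others are particular to mitochondria, and liver is rich in the organelle because hepatocytes oxidise fatty acids and make glucose and urea with it.

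Male C57BL/6J mice, 8 to 12 weeks old, gave the livers, which were compared between animals without food for 24 h (fasted) and animals that had food for 2 h after the same 24 h fast (re-fed). RNA of 4 fasted and 4 re-fed livers, 200 ng each, was labelled with Cy5 (red) or Cy3 (green), and each of 4 two-colour arrays held 1 liver of each kind, paired at random, so that an array is the replicate (n = 4). The fasted liver carried Cy5 on arrays 1 and 2 and Cy3 on arrays 3 and 4. No liver from a mouse fed throughout was measured, so a change during the fast and a change in the 2 h of feeding cannot be told apart. Values are given as log2 of fasted over re-fed liver with the dye orientation turned, and a negative value is a lower level in the fasted liver.

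Median spot brightness was 40 to 75 in red and 44 to 96 in green, and no spot was saturated. All 7 hepatocyte markers were well above background in all 8 channels. The 14 pancreatic acinar markers had array medians of 0.0015, -0.03, -3.43 and -0.03, and all 14 were negative on array 3, from -6.09 to -1.17, which sets that re-fed liver apart. The 5 blood markers had array medians of 0.39, -0.26, 1.12 and 0.23. Over the 4 of them that were kept the medians were 1.37, -0.27, 1.75 and 0.24, so that array 1 was high as well as array 3. The part of either marker list in the results was not tested, and the calls among members, lists and neighbours are given with and without array 3. In whole liver, fewer cells of a type and less RNA per cell cannot be told apart.

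Mitochondrial ribosomal protein transcripts differed little between fasted and re-fed liver, and those that passed the test were lower in fasted liver. Of the 75 genes, 74 were measured above background, all but Mrpl21. By each gene's brightest probe, 11 of 74 (14.9%) were lower at an adjusted p under 0.10 in limma, where 6.28% of all 16084 features were lower. None was higher, where 4.96% of all features were, although 1 member, Mrps9, was higher at an unadjusted p under 0.05, and SAM also gave 0. With a change of at least 1.5-fold required as well, 1 member, Mrps6, was called lower (2.13% of all features) and 0 were called higher (1.82% of all features). The count of 11 depended on having all arrays. It was 5 without array 1, 3 without array 2, 2 without array 3 and 2 without array 4, when 5.62%, 2.41%, 1.61% and 2.54% of all features were lower. The members' shares were then 6.76%, 4.05%, 2.7% and 2.7%. They lay near that of all features without array 1 and without array 4, and also with plain background subtraction (5 members or 6.76%, all features 6.31%) and with Agilent's processed signals (7 members or 9.46%, all features 8.55%). Mrps6 and Mrpl15 passed in every one of these fits. With the background model fitted on all spots, including those of extreme local background, 0 members passed, and 0.0932% of all features were lower.

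The shift of the members as a group was small. The median log2 ratio of the 74 genes was -0.07, against 0.0033 over all features, and the members ran from -0.65 to 0.19. On arrays 1 to 4 the members' medians were -0.16, -0.09, -0.08 and -0.15, each below 0, and without array 3 the median over genes was -0.10. Of the 74 genes, 56 (75.7%) had a mean below 0, against 49.2% of all features. On all 4 arrays, 29 (39.2%) were below 0 (15.7% of all features) and 2 (2.7%), Mrps9 and Mrps24, were above 0 (14.1% of all features).

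**Figure D1:**
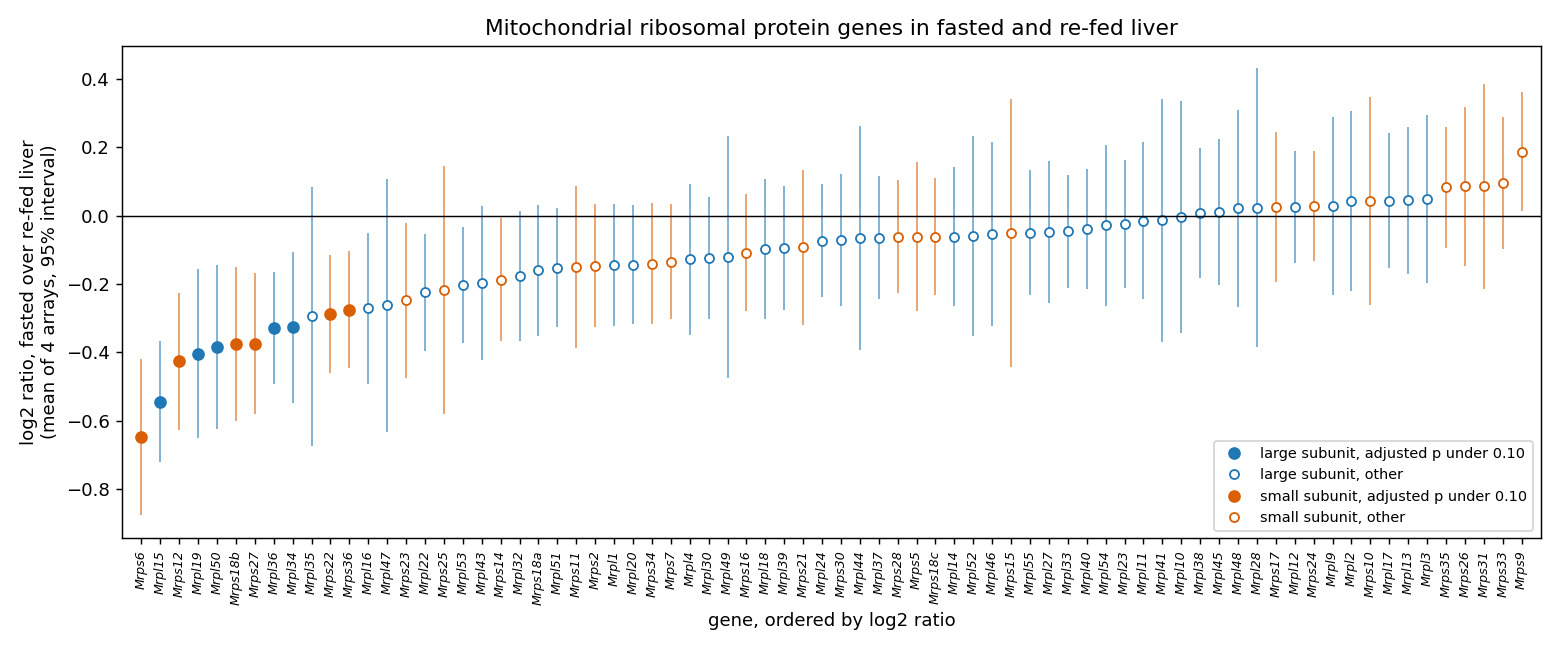
Mean log2 ratio of fasted over re-fed liver (y axis) for the 74 member genes in order of that ratio (x axis), with 95% intervals over 4 arrays from limma. Blue is the large subunit, orange the small subunit, and filled points have an adjusted p under 0.10. The 11 filled points lie at the low end, from -0.65 (Mrps6) to -0.27 (Mrps36), and the intervals of most other members cross 0.

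Mrps6, counterpart of a bacterial small-subunit protein, changed most. Its normalised log2 intensity was 8.90, 9.43, 9.60 and 9.995 in the fasted livers of arrays 1 to 4 and 9.69, 10.27, 10.096 and 10.46 in the re-fed livers beside them. The fasted liver was the dimmer one on every array, with ratios of -0.80, -0.84, -0.49 and -0.46. The mean was -0.65 ± 0.20 (SD, n = 4), a 1.57-fold lower level with a 95% interval of 1.34 to 1.84, at an adjusted p of 0.0198 in limma. Without array 3 it was -0.70 (adjusted p of 0.0725). Without array 2 the mean of -0.58 fell just short of 1.5-fold. The probe lies at chr16:92112223-92112282 in the mm9 build of the files, and its place in the transcript is not given there.

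Mrps6 starts 14 bases from Slc5a3, the sodium and myo-inositol cotransporter, on the same strand, so that the same stretch of DNA lies upstream of both starts. Slc5a3 was measured by 2 probes that do not overlap the Mrps6 probe. Along the strand they lie between these starts and the Mrps6 probe, so that the 2 genes overlap. Its brighter probe (chr16:92087281-92087340, mm9) read -0.29, -0.69, -0.75 and -0.98, a mean of -0.68 ± 0.29 (SD, n = 4, adjusted p of 0.031 in limma). Its other probe (chr16:92079366-92079425, mm9) had a mean of -0.55 ± 0.19 (SD, n = 4, adjusted p of 0.0285 in limma). Without array 3 neither passed, at -0.65 (adjusted p of 0.127) and -0.54 (adjusted p of 0.124). On every array both genes had negative ratios, but array 1 gave the smallest ratio for Slc5a3 and one of the largest for Mrps6. The 236 bases before the Slc5a3 start, itself 14 bases from that of Mrps6, are shown because they are common to both genes (chr16:92058086-92058321, + strand, GRCm38.p6, RefSeq). They held no match to the motifs described below.
Mrps6 and Slc5a3: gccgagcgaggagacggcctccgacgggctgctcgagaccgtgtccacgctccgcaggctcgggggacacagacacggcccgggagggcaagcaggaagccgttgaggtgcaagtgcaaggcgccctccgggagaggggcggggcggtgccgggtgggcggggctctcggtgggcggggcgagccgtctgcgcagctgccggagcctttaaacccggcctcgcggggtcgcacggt

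Mrpl15, a large-subunit protein with a bacterial counterpart, gave the most even change among the stronger ones. Its normalised log2 intensity was 8.90, 9.30, 9.38 and 9.72 in the fasted livers and 9.49, 9.92, 9.93 and 10.14 in the re-fed livers. The ratios were -0.59, -0.62, -0.55 and -0.41, with a mean of -0.54 ± 0.09 (SD, n = 4), 1.46-fold lower, at an adjusted p of 0.016 in limma. Every array showed the fall in about the same size, and without array 3 the mean was -0.54 (adjusted p of 0.0866). The probe lies at chr1:4764533-4764592 (mm9).

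Among the large-subunit genes, 5 of 47 (10.6%) were lower (6.28% of all features), 0 were higher (4.96%), 15 (31.9%) were below 0 on all 4 arrays (15.7%), and the median was -0.06. Without array 3, 1 (2.13%) was lower, where 1.61% of all features were, and the median was -0.10. Besides Mrpl15 these were Mrpl19, Mrpl34 and Mrpl36, all with bacterial counterparts, and Mrpl50, which is particular to mitochondria. Mrpl36, a very short zinc-binding protein, read -0.36, -0.30, -0.29 and -0.37, a mean of -0.33 ± 0.04 (SD, n = 4, adjusted p of 0.0457 in limma). Its 4 arrays lay closer together than those of any other lower member.

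Mrpl19 read -0.22, -0.28, -0.39 and -0.73, a mean of -0.40 ± 0.23 (SD, n = 4, adjusted p of 0.0774 in limma), so that array 4 carried the largest part. Mrpl50 read -0.11, -0.32, -0.57 and -0.54, a mean of -0.38 ± 0.21 (SD, n = 4, adjusted p of 0.0804). Mrpl34 read -0.51, -0.09, -0.28 and -0.42, a mean of -0.33 ± 0.18 (SD, n = 4, adjusted p of 0.0994). For Mrpl19 the lower ratios came from arrays 3 and 4, as for Mrpl50, and Mrpl34 passed by the narrowest margin. Without array 3 the adjusted p of these 4 genes ran from 0.176 (Mrpl36) to 0.28 (Mrpl50).

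The 3 stalk proteins Mrpl10, Mrpl11 and Mrpl12, which recruit translation factors, had a median of -0.01, the 6 proteins of the central protuberance, where the subunits meet, -0.04, and the 8 proteins around the exit of the peptide tunnel -0.07. None of these genes passed the test, and the whole large subunit had a median of -0.06. Without array 3 the medians were -0.03, -0.03 and -0.05, and again none passed. Large-subunit proteins with a bacterial counterpart had 4 of 29 (13.8%) lower and a median of -0.07. Those listed as particular to mitochondria had 1 of 18 (5.56%) lower and a median of -0.06, where 6.28% of all features were lower. Without array 3 the counts were 1 and 0, where 1.61% of all features were lower, and the medians -0.12 and -0.08. The difference between these groups was not tested.

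In the small subunit, 6 of 27 genes (22.2%) were lower (6.28% of all features), 0 were higher (4.96%), 14 (51.9%) were below 0 on all 4 arrays (15.7%), and the median was -0.11. Without array 3, 1 (3.7%) was lower, where 1.61% of all features were, and the median was -0.12. Mrps12, which lines the decoding centre, read -0.38, -0.26, -0.47 and -0.60, a mean of -0.43 ± 0.14 (SD, n = 4, adjusted p of 0.0397 in limma). It was the third lowest member, and its probe lies at chr7:29524837-29524896 (mm9). Of the 16 small-subunit genes with a bacterial counterpart only Mrps6 and Mrps12 were lower (12.5%), with a list median of -0.08. Without array 3 only Mrps6 was (1.61% of all features), and the median was -0.11.

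Of the 10 small-subunit genes listed as particular to mitochondria, Mrps18b, Mrps22 and Mrps27 were lower (30%, with 6.28% of all features). The list median was -0.18. Without array 3 none was (1.61% of all features), and the median was -0.16. Mrps18b was listed here although it is one of several related proteins in the place of a single bacterial one. It read -0.31, -0.65, -0.20 and -0.34, a mean of -0.38 ± 0.19 (SD, n = 4, adjusted p of 0.0731 in limma). Mrps27, a repeat protein that binds RNA, read -0.44, -0.55, -0.19 and -0.32, a mean of -0.38 ± 0.16 (SD, n = 4, adjusted p of 0.0597). Mrps22 read -0.20, -0.27, -0.39 and -0.29, a mean of -0.29 ± 0.08 (SD, n = 4, adjusted p of 0.0724). Its ratios were close together, whereas array 2 was the lowest for both Mrps18b and Mrps27. Without array 3 the adjusted p was 0.16 for Mrps18b, 0.125 for Mrps27, 0.282 for Mrps22 and 0.165 for Mrps12.

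Mrps36 keeps the name of a small-subunit protein but is now regarded as a component of the mitochondrial 2-oxoglutarate dehydrogenase complex. It read -0.25, -0.21, -0.25 and -0.38, a mean of -0.27 ± 0.07 (SD, n = 4, adjusted p of 0.0805 in limma), and without array 3 the adjusted p was 0.254. A second, dimmer probe gave -0.41 (adjusted p of 0.0478). Without Mrps36 the count of lower members is 10. By its name it was also counted among the 27 small-subunit genes, their 6 lower ones and their 14 below 0 on all 4 arrays.

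**Figure D2:**
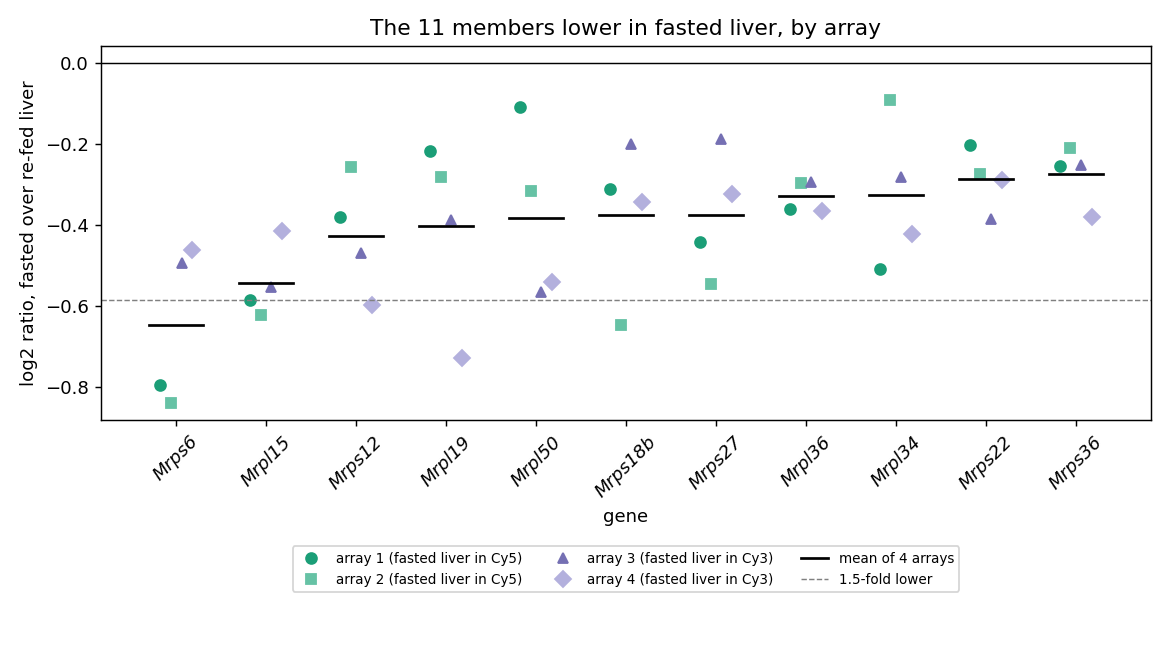
Log2 ratio of fasted over re-fed liver (y axis) on each of the 4 arrays (points, shaped by array and coloured by dye orientation) for the 11 lower members (x axis), with the mean as a bar and the 1.5-fold line dashed. All points lie below 0, and the mean of Mrps6 at -0.65 is the single one beyond the line.

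At the high end, Mrps9, a small-subunit protein with a bacterial counterpart, read 0.21, 0.26, 0.20 and 0.07, a mean of 0.19 ± 0.08 (SD, n = 4), and did not pass (limma, adjusted p of 0.202, or 0.462 without array 3). Mrps33 read 0.05, 0.24, -0.06 and 0.15, a mean of 0.10 ± 0.13 (SD, n = 4). The next was Mrps31, with a mean of 0.09 ± 0.31 (SD, n = 4). Mrps31 had ratios of 0.34 and 0.36 on arrays 1 and 2 and of -0.17 and -0.18 on arrays 3 and 4, opposite signs that follow the dye.

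A second probe was available for 19 genes. The pair lay within 0.10 of each other for 14 of them, with a median difference of 0.04, and signs differed for Mrpl10, Mrpl27 and Mrps33, none with a probe past the test. The largest gap was that of Mrps7, at -0.14 by the brighter and -0.35 by the dimmer probe (adjusted p of 0.107 in limma). Mrpl47 and Mrps14, not counted as lower, had a dimmer probe past the test, at -0.26 (adjusted p of 0.0821) and -0.31 (adjusted p of 0.0974). Conversely, Mrpl50 and Mrps18b were counted as lower while their dimmer probes did not pass, at -0.35 (adjusted p of 0.214) and -0.40 (adjusted p of 0.106). A further member of the large subunit, Mrpl42, is listed under the name D10Ertd322e and so lay outside the rule. It read -0.19, -0.15, -0.15 and -0.21, a mean of -0.18 ± 0.03 (SD, n = 4, adjusted p of 0.199).

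The dye moved members about as much as the comparison did, with a median absolute dye effect of 0.08 and a median absolute log2 ratio of 0.09. Over the 74 genes, ratios correlated at 0.61 between arrays 1 and 2 and at 0.88 between arrays 3 and 4. Where the orientation differed, the correlation was -0.18 to 0.18. Over all kept probes the latter was 0.22 to 0.40, and these correlations are across genes, which are not replicates. The members' median was nevertheless alike in both orientations, -0.12 with the fasted liver in Cy5 and -0.11 with it in Cy3. In both orientations 35 members were below 0 and 5 above, and 34 changed sign.

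Tested as a second term in limma, a dye effect was found for 12 members at an adjusted p under 0.10. In Cy3, 8 members were brighter (7.5% of all features), led by Mrpl28, whose ratios were -0.29, -0.44, 0.41 and 0.41. In Cy5, 4 were brighter, namely Mrpl35, Mrpl47, Mrpl44 and Mrps31 (7.86% of all features). None of the 11 lower members was among them and all 11 had the same sign in both orientations, which the test that chose them favours, since a dye effect widens the spread it uses. With the dye term in the fit, 19 members were lower (25.7%), where 13.8% of all features were, and 1, Mrps9 (adjusted p of 0.0846), was higher, where 13% of all features were. The 19 contained all 11. Without array 3 no member had a dye effect past the test, where the shares of all features were 1.37% (Cy5 brighter) and 0.858% (Cy3 brighter). With the dye term 10 members (13.5%) were then lower, where 8.1% of all features were, and 0 higher, where 7.4% were.

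**Figure D3:**
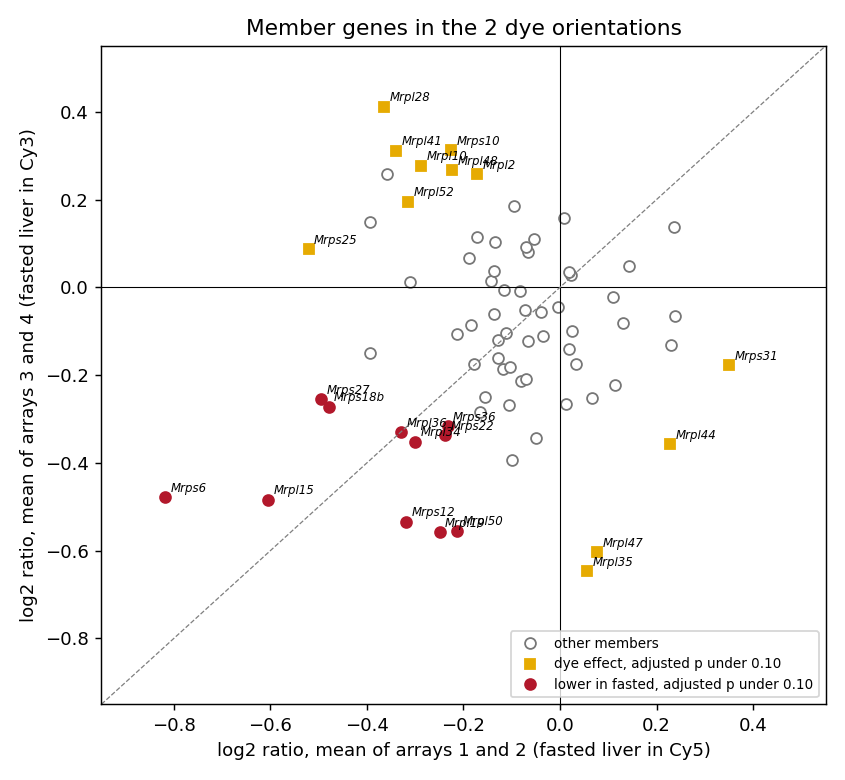
Mean log2 ratio of fasted over re-fed liver on arrays 1 and 2 (x axis, fasted liver in Cy5) and on arrays 3 and 4 (y axis, fasted liver in Cy3) for the 74 members. Red marks the 11 lower members, yellow squares the 12 with a dye effect, and the dashed line is equality. The red points are all below 0 on both axes, and the yellow squares have opposite signs on the axes.

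The cytosolic ribosome and the respiratory chain had few calls. Of 81 measured cytosolic ribosomal protein genes 0 were lower and 0 higher in limma (1 in each direction at an unadjusted p under 0.05), with a median of -0.04. Of these 81, 65 (80.2%) had a mean below 0, against the members' 75.7%, and 7 (8.64%) were below 0 on all 4 arrays, against the members' 39.2%. A list of 85 measured genes was drawn by name for the respiratory chain and the ATP synthase, which the mitochondrial ribosome serves. In limma 1 (1.18%) was lower and 1 (1.18%) higher, and the median was 0.03. Over all features 6.28% were lower and 4.96% higher. The 2 genes were Ndufaf4 at -0.55 (adjusted p of 0.0154) and Atp5sl at 0.51 (adjusted p of 0.0195). Neither is a subunit of these complexes, and the list holds further genes that are not, such as Ndufaf1 and Cox4nb. Without array 3 the counts at an adjusted p under 0.10 were the same for these lists and the medians were -0.05 and 0.04. The share of genes with a mean below 0 was then 70.4% for the cytosolic ribosomal proteins and 83.8% for the members, so that their order turned. Without array 2 the medians were -0.01 for the cytosolic ribosomal proteins and -0.0053 for the respiratory chain genes. The difference between these lists and the members was not tested. Centring the arrays on their median in place of loess gave -0.21 for the members and -0.20 for the cytosolic ribosomal proteins, with -0.06 for all features, and turned the respiratory chain genes to -0.13.

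Other proteins of the mitochondrial ribosome that carry other names did not pass the test. Their 7 genes had a median of -0.05, from -0.28 for Gadd45gip1 to 0.10 for Dap3, and without array 3 none passed and the median was -0.08. The counts of the lists that follow stand beside 6.28% lower and 4.96% higher over all features, and those without array 3 beside 1.61% and 1.32%. Factors that assemble the ribosome had 5 of 22 (22.7%) lower and 0 higher, with a median of -0.05. These were Rpusd4 at -0.44 (adjusted p of 0.0417), Mrm2 at -0.36 (0.0836), Mrm3 at -0.34 (0.0596), Ngrn at -0.31 (0.09999) and Mettl17 at -0.31 (0.0837), each p from limma. Rpusd4, Mrm2, Mrm3 and Ngrn act in modifying the large mitochondrial ribosomal RNA, and Mettl17 in assembling the small subunit. Without array 3 none of the 22 passed (5 lower and 0 higher at an unadjusted p under 0.05), and the adjusted p of these 5 genes was 0.155 to 0.294, with a list median of -0.07.

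Among translation factors 2 of 14 (14.3%) were lower and 0 higher, with a median of -0.09. Mtrf1l, which releases finished chains, read -0.60, -0.47, -0.38 and -0.45, a mean of -0.48 ± 0.09 (SD, n = 4, adjusted p of 0.0219 in limma). Tsfm, which recharges the elongation factor Tufm, had a mean of -0.26 ± 0.09 (SD, n = 4, adjusted p of 0.098). Among the enzymes that charge mitochondrial tRNAs 2 of 18 (11.1%) were lower and 0 higher, with a median of -0.03. They were Cars2 for cysteine at -0.53 ± 0.15 (SD, n = 4, adjusted p of 0.0225) and Qrsl1, an amidotransferase subunit that completes glutamine tRNA, at -0.47 ± 0.25 (SD, n = 4, adjusted p of 0.0614). Without array 3, Mtrf1l passed at -0.51 (adjusted p of 0.0926), while Tsfm (adjusted p of 0.241), Cars2 (0.112) and Qrsl1 (0.213) did not. The medians were then -0.11 for the translation factors and -0.10 for the tRNA enzymes.

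Among the genes that copy and transcribe mitochondrial DNA the calls were in the other direction, with 0 of 10 lower, 2 (20%) higher and a median of 0.06. Polg2, accessory subunit of the mitochondrial DNA polymerase, read 0.82, 0.70, 0.50 and 0.48, a mean of 0.62 ± 0.16 (SD, n = 4, adjusted p of 0.0169 in limma). Tfb2m, an initiation factor of mitochondrial transcription, had a mean of 0.30 ± 0.11 (SD, n = 4, adjusted p of 0.0761). Of 10 nuclear factors that drive genes for mitochondria, 0 were lower, 1 (10%) was higher, the coactivator Ppargc1a at 1.20 ± 0.16 (SD, n = 4, adjusted p of 0.00338), and the median was 0.08. Without array 3, Polg2 passed at 0.67 (adjusted p of 0.0712) and Ppargc1a at 1.19 (0.0234), Tfb2m did not (0.189), and the medians of these lists were -0.00038 and 0.09. Gabpa and Nrf1, which bind the motifs below, had means of 0.29 ± 0.23 (adjusted p of 0.168, or 0.326 without array 3) and 0.12 ± 0.27 (adjusted p of 0.62, or 0.673 without array 3).

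**Figure D4:**
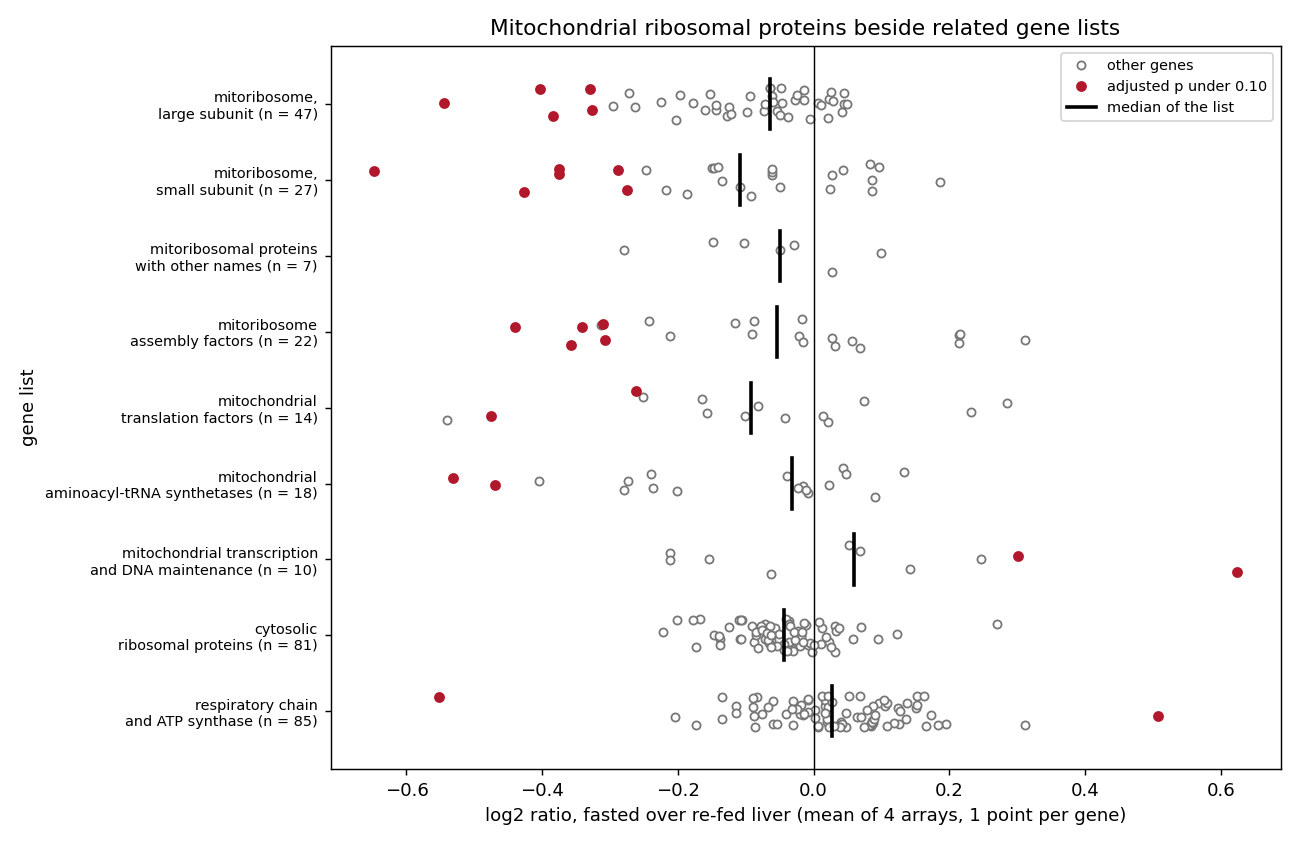
Log2 ratio of fasted over re-fed liver (x axis, mean of 4 arrays, 1 point per gene) for the members by subunit and for related gene lists (y axis, number of measured genes in brackets), with the list median as a bar and genes at an adjusted p under 0.10 in red. Red points of the ribosome, assembly, translation and tRNA lists lie below 0, those of the transcription and DNA list above 0, and the cytosolic ribosomal proteins have none.

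Many members start close to a gene on the opposite strand. RefSeq promoter windows (GRCm38.p6, 250 bases before to 50 after each start) were held for 66 of the 75 members. A gene on the opposite strand started within 1000 bases for 24 of them (36.4%), against 9.61% of 17492 coding genes. A measured neighbour was found for 23 of them, and 3 neighbours were lower and 0 higher in limma, where 6.28% of all features were lower and 4.96% higher. Mrpl46 and Mrps11 are each other's neighbour, and the 21 neighbours that are not members had a median of -0.03. Without array 3, 1 neighbour was lower and 0 were higher (1.61% and 1.32% of all features), and the median was -0.07. In 1 pair, Mrps27 and Ptcd2, both genes were lower. Ptcd2, which acts on mitochondrial RNA, read -0.45, -0.55, -0.31 and -0.49, a mean of -0.45 ± 0.10 (SD, n = 4, adjusted p of 0.0274), and without array 3 the mean was -0.49 (adjusted p of 0.0918), when Mrps27 no longer passed. Its ratios were lowest on array 2 and highest on array 3, as were those of Mrps27.

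For other lower members the neighbour on the opposite strand did not pass the test. Sars2, a mitochondrial tRNA synthetase whose start lies 147 bases from that of Mrps12, had a mean of -0.01 ± 0.16 (SD, n = 4, adjusted p of 0.96 in limma). Zfp189, 93 bases from Mrpl50, had 0.12 ± 0.07 (adjusted p of 0.393), and Ppp1r10, 756 bases from Mrps18b, had 0.33 ± 0.27 (adjusted p of 0.154). The other 2 lower neighbours were Gga3 at -0.52 (adjusted p of 0.0257) beside Mrps7 and Tcp1 at -0.35 (adjusted p of 0.0608) beside Mrpl18, whose own ratios of -0.14 and -0.10 did not pass. Without array 3 the adjusted p was 0.109 for Gga3 and 0.149 for Tcp1, and 0.917 for Sars2, 0.627 for Zfp189 and 0.418 for Ppp1r10.

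The letters bound by factors known to drive genes for mitochondria were searched in these windows on both strands, and a gene counted where any of its windows held a match. The ETS letters CCGGAAG were found for 24 of 66 members (36.4%, with 12.9% of all coding genes), the YY1 letters AAGATGGC for 11 (16.7%, with 3.57%) and the NRF1 letters GCGCATGC for 8 (12.1%, with 3.94%). The letters TGACGTCA of the cAMP response element, which CREB binds, were found for 2, Mrpl16 and Mrpl49 (3.03%, with 2.54%), and the E box CACGTG for 5 (7.58%, with 8.91%). Of the 9 lower members with a window, 5 held the ETS letters, 3 YY1, 1 NRF1, 1 the E box and 0 TGACGTCA. The paper allowed 1 mismatch in TGACGTCA or took the shorter TGACG alone, and found CREB sites with neither. Only exact TGACGTCA was searched here, so the count of 0 does not show that CREB sites are absent. A match describes letters only, and the arrays measured no binding. The paper mapped CREB binding by sequencing in fasted and re-fed livers, and those sites were not used here.

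The stretches upstream of 4 lower members are shown 5′ to 3′, to set a pair that moved together beside one that did not, and to show how matches lie. Capitals mark matches. Mrps27 is shown up to the start of Ptcd2 (chr13:99344679-99344785, +), with ETS letters beginning 48 bases before its start. Mrps12 is shown up to the edge of Sars2 (chr7:28741822-28741956, -), with no match in the stretch. Its ETS and YY1 letters lie elsewhere in its window. The Mrps12 stretch holds the unsearched letters TGACG on each strand, and the Mrpl36 stretch holds them on the opposite strand. Mrps22 (chr9:98601680-98601779, -) has ETS letters beginning 11 bases before its start. Mrpl36 (chr13:73330909-73331008, +) has an E box beginning 43 bases and YY1 letters beginning 30 bases before its start. All are from RefSeq on GRCm38.p6.
Mrps27: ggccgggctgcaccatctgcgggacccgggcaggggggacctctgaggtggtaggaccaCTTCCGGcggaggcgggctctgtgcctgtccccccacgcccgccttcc
Mrps12: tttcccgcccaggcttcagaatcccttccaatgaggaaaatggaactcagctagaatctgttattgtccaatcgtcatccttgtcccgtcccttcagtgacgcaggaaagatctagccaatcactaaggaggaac
Mrps22: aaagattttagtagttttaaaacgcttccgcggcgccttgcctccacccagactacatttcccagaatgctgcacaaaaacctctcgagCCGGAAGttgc
Mrpl36: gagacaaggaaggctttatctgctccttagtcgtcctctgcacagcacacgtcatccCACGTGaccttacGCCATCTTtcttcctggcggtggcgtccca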

How the data were processed

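The authors deposited scanner files with raw spot intensity, local background and quality flags of 2-colour arrays, and a table of log2 ratios normalised by loess in limma, whose background step is not given in the sources used here. The latter served as an alternative. limma 3.58.1 (R 4.3.3) was used on median intensities. Spots with a local background over 3 times the array median were left out (55 of 177588, no member spot, a step known from earlier work on these data to change the calls), background was removed by normexp (offset 50), and ratios were normalised within arrays by loess over the whole array, since print tips, which the methods name, are absent from the files. Flagged spots were left out and spots of a probe averaged. Probes well above background on all 4 arrays in at least 1 condition, and valued on all 4, were kept (19719 of 39429). Differences were tested with lmFit and eBayes, two-sided, and p-values adjusted by Benjamini-Hochberg across every kept probe. SAM, which the methods name, was rebuilt with 16 sign flips. Each gene entered by its brightest probe. The number of arrays limits the precision. The steps were tested on simulated data.

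Members and lists were chosen with earlier results of these data known. Given by rule were the array values of members past the test and of the 3 highest and 3 lowest members. So were the means of genes past the test in the lists for ribosome assembly, translation, tRNA charging, mitochondrial DNA and transcription, and nuclear factors. Array values of Mrpl28, Mrpl42, Slc5a3, Ptcd2, Mtrf1l and Polg2 and the means of Ndufaf4 and Atp5sl were added after their values were seen. So was the fit without array 3 for lists, neighbours and the dye effect. Alternatives covered background, normalisation, filters, flags, a dye term, SAM, probe choice and each array left out. All arrays lay on 1 slide. The files give mm9 coordinates, and promoters are those of GRCm38.p6, and no coordinate was converted. The promoter table held no entry for Mrps35, Mrpl4, Mrpl19, Mrpl54, Mrps28, Mrpl13, Mrpl15, Mrpl38 and Mrps34.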

Additional observations from a re-analysis of the deposited data

Results flagged for a closer look

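In 4 of 37 values scanned, 1 array lay apart from the other 3 by more than Dixon's limit for 4 samples, which chance passes in about 1 of 20 groups. The median of the large subunit was -0.18 on array 1 and -0.09, -0.09 and -0.10 on the others (gap over range 0.901). Its part with bacterial counterparts gave -0.20 on array 1 and -0.09 to -0.10 on the others (0.867). The median of the genes for mitochondrial transcription and DNA maintenance was 0.12 on array 3 and 0.04 to 0.06 on the others (0.841). The median of the 5 pancreatic acinar markers that were kept was -2.96 on array 3 and between -0.05 and 0.04 on the others (0.97). Over all 74 members no array stood apart by this measure.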

How the results depend on the processing

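The members' median stayed below 0 under all 17 alternatives that give one. Between arrays left out in turn it ran from -0.10 to -0.08, and centring on the array median moved it to -0.21. The count of lower members, 11, was 0 with normexp fitted on all spots, when 0.0932% of all features were lower, 5 with plain background subtraction, 7 with Agilent's processed signals and 19 with a dye term. It was 9 to 14 under the other settings that kept all arrays, and 2 to 5 with an array left out. The dye term also gave 1 higher member. The count lower with 1.5-fold, 1, was 0 with normexp on all spots, 2 with median centring and 0 to 2 with an array left out. Median centring gave 8.33% lower and 2.47% higher over all features, against 6.28% and 4.96%. Mrps6 and Mrpl15 passed the test under 16 of 17 alternatives, missing it with normexp on all spots (adjusted p of 0.559 in limma for each), and no named member that passed the test changed sign. Mrpl34 passed under 4 of 17. Causes were not tested. With 4 ratios per gene, changes as small as the members' median are not resolved gene by gene.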
